A study of Homo sapiens with 18 samples.

Results

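The probe sets assigned to several genes are the oligonucleotide sets of the HG-U133 Plus 2.0 array whose annotated gene field holds 2 or more symbols. Of the 54675 probe sets in the value table, 1801 had such a field, and 49 of them were left out because the field included a histone, ferritin, actin, tubulin or HLA symbol (matched by symbol pattern, which kept the histone variant CENPA). No field belonged to a control set with a name starting with AFFX. The remaining 1752 probe sets, 3.20% of the table, are described here. They carried 1077 different fields and 2270 different symbols, and 389 fields were shared by several probe sets (1064 sets in all, at most 13 for 1 field).

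A single RNA from untreated cells of the human follicular thyroid carcinoma line FTC133 was hybridised to 3 arrays, A, B and C, which were scanned 18 times between rounds of stringent washing. In the first series array A had no stringent wash before staining and was scanned after 0, 2, 7 and 17 cycles (A1 to A4), while array B had 2 cycles before staining and was scanned after the same 0, 2, 7 and 17 additional cycles (B1 to B4), and array C had 6 cycles before staining and gave 1 scan (C1). Staining consisted of 3 rounds, streptavidin-phycoerythrin, an antibody against it, and streptavidin-phycoerythrin again, and was repeated on all arrays before a second series with the same additional cycles (A5 to A8, B5 to B8 and C2). Before this second staining array A had 0 further stringent cycles, array B had 2 and array C had 6. The total of stringent cycles was thus 17 to 34 on A5 to A8, 21 to 38 on B5 to B8 and 12 on C2. All groups share the same RNA, cell line and hybridisation protocol, but the arrays were hybridised separately and differ in the cycles before staining. They are technical and not biological repeats. The p-values below measure only the spread between scans and arrays, which includes that difference. The signals had been scaled in every scan to the same trimmed mean, and the median signal of all probe sets fell from 136 on A1 to 51.0 on C1. VIM and FN1, a filament protein and a matrix protein of mesenchymal cells, reached 18362 and 21881 on C1, and the thyroid transcription factors PAX8 and NKX2-1 reached 757 and 766, while thyroglobulin (TG, 40.7) the thyrotropin receptor (TSHR, 38.9) and the thyroid factor FOXE1 (39.9) lay below the C1 median. Of the epithelial genes KRT18 (1408), KRT8 (514) and EPCAM (214) lay above the median and CDH1 (32.3) and KRT19 (4.59) below it.

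A probe set is a group of short probe pairs, a perfect match and a mismatch, whose brightness is summarised into 1 signal for the transcripts they bind. The ending of its name records what the designers found in the sequences known to them. A plain _at set was meant for 1 transcript, _a_at for alternative transcripts of the same gene, _s_at for transcripts that share all of the probes, and _x_at for sets in which some probes also match unrelated sequences. Genes are listed together below with a slash. A field with several symbols can arise in different ways. A microRNA or small nucleolar RNA lies within its host gene, a read-through transcript joins neighbouring genes, a gene has been duplicated, or a processed pseudogene copies an mRNA.

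Endings that mark shared sequence were more frequent here than in the whole table. There were 349 _x_at sets (19.9% against 7.69% of the table) and 548 _s_at sets (31.3% against 20.7%), but also 810 plain _at sets (46.2% against 68.3%) and 43 _a_at sets (2.45% against 3.15%). A further 2 sets had older endings, 64474_g_at for MIR1306/DGCR8 and 65133_i_at for INO80B-WBP1/INO80B. Read the other way, 8.30% of all _x_at sets, 4.85% of _s_at, 2.50% of _a_at and 2.17% of _at sets had several symbols. A plain _at name was thus the most frequent ending among sets whose field lists several genes.

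Most fields were short. Of the 1752 sets, 1318 (75.2%) listed 2 symbols, 130 listed 5 or more and 21 listed 10 or more. The longest field, 15 symbols, was that of the alpha protocadherins (PCDHA1 to PCDHA13, PCDHAC1 and PCDHAC2), neuronal adhesion molecules whose transcripts join different first exons to the same last exons. It belonged to 3 sets with C1 signals of 360 (223435_s_at), 201 (210674_s_at) and 63.2 (224212_s_at). The 13 cancer-testis genes of the GAGE field (207086_x_at) gave 27.2, and the 12 CT47A genes (231568_at) gave 5.17.

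Kinds were taken from the symbols, and pseudogenes from the RefSeq gene type. Each set was counted under the first kind that applied, in the order given here. A microRNA or small nucleolar RNA was named by 359 sets, a read-through by 235, an antisense transcript by 19 and the protocadherin or UGT1A clusters by 17. Another 170 named an uncharacterised LOC locus, 251 a pseudogene, 403 genes with a shared stem (at least 3 common letters) and 298 none of these. In RefSeq the genes of 716 sets (40.9%) overlapped, those of 385 lay within 100 kb, those of 381 farther apart on the same chromosome, and those of 245 on different chromosomes. Overlap was the rule for small RNA fields (306 of 359) and read-throughs (225 of 235), while pseudogene fields mostly joined distant loci (112 farther on the same chromosome and 96 on different chromosomes). Of the 2270 symbols, 1545 (68.1%) had no probe set of their own. Leaving out the 275 small RNA symbols, of which 5 had a set of their own, the share was 63.9% of 1995.

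The microRNA symbols show how much shorter than a transcript the second member of a field can be. RefSeq (GRCh38.p14) held a mature sequence for 137 of the 154 microRNA symbols, in all 208 different mature sequences of 18 to 27 bases. The following belong to the brightest microRNA fields on C1 and to the pair of microRNA fields that changed on re-labelling. The seed (bases 2 to 8), which pairs with target mRNAs, is in capitals.
hsa-miR-6805-5p (field of RPL28, chr19:55388186-55388207, plus strand): uAGGGGGCggcuuguggagugu
hsa-miR-3654 (field of EEF1G, chr7:133034860-133034878, minus strand): gACUGGACaagcugaggaa
hsa-miR-1248 (field of EIF4A2, chr3:186786675-186786701, plus strand): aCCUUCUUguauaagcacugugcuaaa
hsa-miR-1282 (field of SERF2, chr15:43793732-43793751, minus strand): uCGUUUGCcuuuuucugcuu
hsa-miR-5047 (field of DDX5, chr17:64501230-64501250, minus strand): uUGCAGCUgcgguuguaaggu
hsa-miR-3064-3p (field of DDX5, chr17:64500775-64500797, minus strand): uUGCCACAcugcaacaccuuaca
hsa-miR-1244 (field of PTMA, listed with the same sequence at chr2:231713368-231713393 and chr5:118974640-118974665, plus strand): aAGUAGUUgguuuguaugagaugguu
hsa-miR-3652 (field of HSP90B1, chr12:103930425-103930442, plus strand): cGGCUGGAggugugagga
hsa-miR-3185 (field of PRAC2, chr17:48724446-48724468, minus strand): aGAAGAAGgcggucggucugcgg
hsa-miR-6785-5p (field of TMEM94, chr17:75498553-75498574, plus strand): uGGGAGGGcguggaugauggug

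These 10 microRNAs have 10 different seeds. Over all mature sequences of the fields 197 different seeds occurred and 8 were shared, the most frequent being AGCAGCA, common to miR-15a-5p, miR-195-5p, miR-424-5p and miR-497-5p. RefSeq places MIR3654 on chromosome 7 although its field names EEF1G, a subunit of the elongation factor that loads tRNA onto the ribosome. The 234 probe sets with a microRNA symbol had a median C1 signal of 230. What they measure cannot be assigned to the microRNA or the other gene of the field from the signal alone. In the paper the labelled RNA was made from cDNA primed with oligo-dT. Which RNA the probes bound was not tested.

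Duplicated genes are the opposite case, with both members of full length. For 331 of the 778 fields with 2 symbols, RefSeq gave the bases before the transcription start of both genes. Over the 250 bases before the start, 24 fields held genes at separate positions with no unlike base, 13 of them on the X chromosome, and another 14 held genes with at most 25 unlike bases. Stretches of 120 bases of 3 pairs, given 5′ to 3′ on the gene's strand, show how alike the bases before the start are, with unlike bases in capitals. They are TRIM74 and TRIM73, whose probe set changed on re-labelling, the melanoma antigens MAGEA6 and MAGEA3, the brightest cancer-testis field, and RABL2A and RABL2B, small GTPases encoded on different chromosomes, which had 3 unlike bases in 250.
TRIM74 (chr7:72969577-72969696, minus strand): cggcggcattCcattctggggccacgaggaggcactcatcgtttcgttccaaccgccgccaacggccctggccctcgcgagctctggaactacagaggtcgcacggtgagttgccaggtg
TRIM73 (chr7:75395399-75395518, plus strand): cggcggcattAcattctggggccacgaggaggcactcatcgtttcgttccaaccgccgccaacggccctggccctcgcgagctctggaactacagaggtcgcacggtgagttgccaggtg
MAGEA3 (chrX:152698674-152698793, plus strand, with the same 120 bases before MAGEA6 on the minus strand): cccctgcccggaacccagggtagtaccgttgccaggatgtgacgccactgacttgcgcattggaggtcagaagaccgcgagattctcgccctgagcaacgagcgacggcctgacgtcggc
RABL2A (chr2:113627069-113627188, plus strand): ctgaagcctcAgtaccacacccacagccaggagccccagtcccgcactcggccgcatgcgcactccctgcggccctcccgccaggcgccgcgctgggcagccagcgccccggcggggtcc
RABL2B (chr22:50783714-50783833, minus strand): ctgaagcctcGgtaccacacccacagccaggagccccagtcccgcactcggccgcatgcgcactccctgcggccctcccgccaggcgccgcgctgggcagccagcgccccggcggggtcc

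The share of _x_at and _s_at endings had no single order with the likeness of the bases before the start. The transcripts, which the probes bind, were not compared, so nothing follows about their likeness and the endings. The 24 fields without an unlike base had 31 probe sets, of which 18 ended in plain _at and 12 in _x_at or _s_at (38.7%). In the 14 fields with at most 25 unlike bases the share was 63.6% of 22 sets. In the 265 fields with unlike stretches, 44.1% of 422 sets ended in _x_at or _s_at. The sets of copies without an unlike base had a C1 median of 48.8, and 15 of 31 lay above the median of all probe sets. Those with at most 25 unlike bases had 23.8, and 5 of 22 lay above it. MAGEA6/MAGEA3 (209942_x_at, 6088) and SERF1B/SERF1A (223538_at, 1926), a pair duplicated beside the SMN genes, were the brightest of the copies.

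On C1, the standard protocol of 6 cycles, the sets with several symbols were brighter than the others, with a median signal of 81.2 against 50.5. The difference of the medians was 0.69 ± 0.13 on the log2 scale (the value of C1 with the SD over the 9 scans of the first series). It was 0.094 when small RNA, read-through and LOC fields were left out. The median was 117 for _x_at, 155 for _s_at, 41.3 for _a_at and 57.2 for plain _at sets. Relative to plain _at this was 1.03 ± 0.10 (2.04-fold) for _x_at, 1.44 ± 0.32 (2.71-fold) for _s_at and −0.47 ± 0.28 for _a_at. The order _x_at, _s_at, _at, _a_at was found in 10 scans, A1 to A8, B6 and B7. The order _s_at, _x_at, _at, _a_at was found in the other 8, B1 to B5, B8, C1 and C2. The upper pair of endings thus kept 1 order on array A and mostly had the other on arrays B and C. With 1 set per field the difference of _a_at turned to 0.22.

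The excess over other sets of the same ending was largest for _x_at among the 4 endings. In the brightest 10% of all probe sets on C1 stood 31.8% of the _x_at sets with several symbols, against 15.8% of the other _x_at sets. For _s_at the shares were 22.1% and 20.3%, for plain _at 9.88% and 6.29%, and for _a_at 4.65% and 2.44%. Without the 71 sets that name a ribosomal protein, a filter chosen after the data were seen, the median of _x_at fell from 117 to 85.5 and its share in the brightest 10% to 24.3%. The 36 ribosomal _x_at sets had a median of 17843.

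Small RNA fields were the brightest kind. Their median on C1 was 336 over 359 sets, and 35.1% lay in the brightest 10% of the table. Within this kind the ending separated the sets widely, from 7727 for 87 _x_at sets and 505 for 94 _s_at sets to 88.4 for 172 plain _at sets. Read-throughs had a median of 110, pseudogene fields 79.0, LOC fields 46.6 and fields with a shared stem 33.8. Pseudogene fields ending in _x_at reached 287 (46 sets), whereas plain _at sets of the same kind had 42.2 (106 sets). With 10 or more symbols the median was 39.8.

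The brightest sets differed by ending. Among _x_at sets the 3 of SNORD42A/RPL23A (a protein of the large ribosomal subunit), 214003_x_at of SNORD54/RPS20 and 212391_x_at of SNORD73A/RPS3A gave 25100 to 26939 on C1. Among _s_at sets 200099_s_at of RPS3A gave 22885, 200038_s_at with RPL17 gave 21637, 203034_s_at of SNORA3A/RPL27A gave 21351 and 200003_s_at of MIR6805/RPL28 gave 21132. The brightest plain _at sets were 200018_at of SNORD14B/RPS13 (20187), 201406_at of RPL36A-HNRNPH2/RPL36A (19625), 1553588_at of SH3KBP1/ND3 (18457) and 208805_at of PRORP/PSMA6 (16677), where ND3 is a mitochondrially encoded subunit of respiratory complex I and PSMA6 a proteasome subunit. The brightest _a_at sets were much dimmer, with NARR/RAB34 (1555630_a_at) at 3036 and TMEM192/ZNF320 (1555790_a_at) at 958.

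By family, the 71 sets of ribosomal proteins had a median of 13032 and 70.4% of them lay in the brightest 10%. The 16 sets of translation factors had 5927, led by 211927_x_at of EEF1G at 17587. The 14 heat shock sets had 1628, led by the chaperone HSPA8 (224187_x_at, 23149), and the 25 splicing factor sets had 728, led by HNRNPA1 (200016_x_at, 21556) and SRSF2 (200754_x_at, 7727). These families share many fields with the small RNA hosts, since introns of such genes often encode small nucleolar RNAs.

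Several families better known from other tissues had low medians. The 61 immunoglobulin and T cell receptor sets had a median of 16.5 and none was above 102, the 9 haemoglobin sets a median of 11.2 and a highest value of 47.7, and the 8 keratin sets, mostly keratin-associated proteins of hair and none of KRT18 or KRT8, 17.2. Sets of single lymphoid and erythroid genes were not all this low, from 19.9 for the T cell gene CD3D over 107 for the beta globin HBB to 247 for the immunoglobulin IGHG1. The 16 placental sets had a median of 6.72, although 215821_x_at of PSG11/PSG3, pregnancy-specific glycoproteins, gave 352, and the single-gene sets of PSG1 and of the hormone subunit CGA gave 341 and 244. The cancer-testis list (33 sets, median 72.3) was made by symbol prefix, with every MAGE symbol taken in, and not by known expression. It also held bright sets, MAGEA6/MAGEA3 at 6088 and MAGED4/MAGED4B at 1332 (221261_x_at). No set of metallothioneins or amylases was among the 1752.

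Probe sets with the same field did not give the same level. Over the 389 fields with several sets the brightest exceeded the dimmest on C1 by a median of 4.17-fold, by over 10-fold in 108 fields and by under 2-fold in 92. For SNORD54/RPS20 the range was 4489-fold, from 5.87 (216247_at) over 15931 (200949_x_at) to 26343 (214003_x_at). For SNHG4/MATR3, where MATR3 encodes a nuclear matrix protein, 9 sets spanned 3.79 (238993_at) to 9812 (214363_s_at). The 9 sets of MIR612/NEAT1, a nuclear non-coding RNA, ran from 3.28 (227062_at) to 2574 (224565_at). At the other end, the sets of COMMD5P1/ZNF250/COMMD5 gave 691 and 699, those of NARR/RAB34 2965 and 3036, and those of EIF4A1 13704 and 14063.

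Within the same field the ending still went with the level for _x_at and _a_at sets. In 44 fields with both endings the _x_at sets exceeded the plain _at sets by a median of 1.19 on the log2 scale (2.29-fold, higher in 28 of 44). In 61 fields the _x_at sets differed from _s_at sets by 0.23 (higher in 37 of 61), and in 143 fields _s_at sets differed from plain _at sets by −0.04 (higher in 70). In 20 fields the _a_at sets lay 0.69 below the plain _at sets (lower in 13). The quartiles of the first of these, −0.47 and 4.44, show that single fields ran both ways.

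For 241 of the 1752 sets every gene of the field also had a set of its own, for 759 some had and for 752 none had. In 106 sets both the shared set and the brightest single-gene set were above the C1 median. The median ratio of the shared signal to the brightest single-gene signal was 0.728. The divisor is the brightest of several single-gene sets and the shared side is 1 set. This choice alone favours a ratio below 1, so the ratio does not show that shared sets are dimmer. With the brightest set of each gene, the shared signal was the brighter in 41 of the 106. It was above the sum of the single-gene signals in 35 and below the dimmest of them in 18. By ending the ratio was 0.825 for 52 _s_at, 0.499 for 19 _x_at and 0.524 for 34 plain _at sets. Single probe sets differ in probe affinity, so these ratios compare signals and not transcript amounts.

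Where the ratios were highest, the single-gene sets were well below the shared one. The shared 214363_s_at of MATR3 gave 9812 against 95.8 for the best set of MATR3 alone (102-fold), and 201973_s_at of CCZ1B/CCZ1, a duplicated gene of endosomal trafficking, gave 6697 against 151 (44.2-fold). CYTOR with MIR4435-2HG (225799_at, 1914) exceeded its best single-gene set 32.4-fold, TIMM23B/TIMM23, a mitochondrial import channel (225535_s_at, 5229), 11.7-fold, and the nuclear pore genes POM121C/POM121 (213360_s_at, 5947) 6.53-fold. In the lowest ratios 1 gene of the field had a bright set of its own. The shared 228655_at of CHORDC1/NAALAD2 gave 58.2 against 1869 for CHORDC1 alone, and 234366_x_at of IGLJ3/CKAP2/IGLC1 gave 69.7 against 2152 for CKAP2.

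Washing was first compared as 17 against 0 additional cycles of the first series over arrays A and B. No probe set passed limma's adjusted p of 0.05 in either direction, neither among the 1752 nor in the table (0% called), and the same held in the second series (0%) and for the difference between the series (0%). At an unadjusted p under 0.05 in the first series, 149 of the 1752 were higher (3.50% of the table) and 228 lower (13.9%), and in the second series 111 higher (2.55%) and 166 lower (11.6%). For the difference between the series it was 79 higher (3.55%) and 62 lower (1.66%). With a variance trend and robust moderation in limma, 157 of the 1752 (8.96%) rose in the first series against 3.57% of the table, and 18 (1.03%) fell against 1.21%. The direction depended on the scaling, since with scans scaled to the 100 brightest sets limma called 0 of the 1752 higher and 948 lower. The variance trend called 115 higher (2.38% of the table) and 8 lower (0.448%) in the second series. For the difference between the series it called 0 higher (0.0146%) and 45 lower (0.583%). In the first series under the trend the _x_at sets carried the largest share of rises, 84 of 349 (24.1%) against 8.58% of the other _x_at sets. The call therefore depended on how the variance was moderated, and sizes are given below beside it.

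The median log2 change over the whole table was −0.61 (A) and −0.27 (B), in signals scaled to the same trimmed mean. In these scaled signals the probe sets did not all fall. The highest scaled signal rose from 13312 (A1) to 34355 (A4) and from 20047 (B1) to 51804 (B4). A common trimmed mean removes any loss shared by all sets. In the paper, probe intensities without this scaling fell on washing, and the brightest stayed nearly unchanged. With scans scaled to the 100 brightest sets, limma called 7 of all 54675 sets higher and 29870 lower. Changes are given relative to the median change of the table. The 1752 sets lay 0.27 (A) and 0.04 (B) above it. The _x_at sets lay 0.64 and 0.33 above it (other _x_at sets 0.27 and 0.10), the _s_at sets 0.47 and 0.02, plain _at sets 0.10 and −0.08, and _a_at sets −0.50 and −0.01. In the second series the _x_at sets lay 0.35 (A) and 0.22 (B) above the median, and plain _at sets 0.02 and −0.01. Over both arrays the _x_at sets exceeded the plain _at sets by 0.47 ± 0.10 (SD, n = 2) in the first series and by 0.29 ± 0.07 in the second. After quantile normalization of the scans these differences were 0.083 and 0.060, so most of the distance disappeared when the signal distributions of the scans were made equal.

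At like brightness the distance between the groups was smaller. In bins of equal brightness on C1 the sets with several symbols differed from the others by a weighted mean of 0.05 on array A and −0.02 on array B, and the _x_at sets from other _x_at sets by 0.12 and 0.14. In the brightest 10% of the table, split again into 5 equal bins, the brightest bin (C1 signals of 4479 to 27839) held 69 _x_at sets with several symbols, with relative changes of 1.98 (A) and 1.57 (B), and 216 other _x_at sets with 1.97 and 1.55. The next bin gave 1.51 and 0.79 for 16 such sets and 1.57 and 0.77 for 113 others. Over all endings the brightest bin gave 1.97 and 1.53 for 115 sets with several symbols and 1.86 and 1.32 for 979 others. No test was made of these medians.

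Agreement between the arrays also rose with brightness. Across the 1752 sets the relative changes on A and B correlated with Pearson's r of 0.171 and Spearman's rho of 0.244, across the 349 _x_at sets with 0.390 and 0.488, and across the 314 sets in the brightest 10% with 0.800 and 0.828. The points are probe sets of the same 2 arrays, many with the same field, and not independent replicates. Across the 810 plain _at sets r was 0.070 and rho 0.097, and across the 43 _a_at sets −0.167 and −0.026. For these endings the change on 1 array said little about the other.

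Ribosomal protein sets followed this pattern as a family. The 71 sets had median relative changes of 1.96 (A) and 1.53 (B) in the first series and 0.86 and 0.76 in the second, and 50 lay above the median of all probe sets on both arrays. Under the variance trend 47 of the 71 rose and 1 fell (3.57% and 1.21% of the table), and the fit without the trend called none. The scaled signal of 200003_s_at (MIR6805/RPL28) was 8385, 12843, 17240 and 22177 on A1 to A4. On B1 to B4 it was 14950, 23240, 30147 and 39035, so it was higher after each added washing on both arrays. The fitted change was 1.39 ± 0.26 (SE) with limma's adjusted p of 0.192, and 5.0e-09 with the trend. After quantile normalization the median of the family was 0.0055 in place of 1.75, the mean of the arrays.

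Other bright fields also rose under the trend, though not with scaling to the 100 brightest sets. The cyclophilin PPIA (212661_x_at of PPIAP34/PPIA) gave 11571 on A1 and 29776 on A4, and 16789 on B1 and 42745 on B4. SUMO2/SUMO3, which encode small proteins conjugated to others (213881_x_at), gave 10260 and 27820 on A and 14462 and 36635 on B. The melanoma antigens MAGEA6/MAGEA3 (209942_x_at) gave 3275 and 9349 on A and 5256 and 8531 on B, a change of 1.11 ± 0.33 with an adjusted p of 0.234 in limma (0.000752 with the trend). Translation factors rose in 10 of 16 sets under the trend, heat shock proteins in 5 of 14 and splicing factors in 7 of 25, with none lower in these 3 families (3.57% of the table higher and 1.21% lower). The fit without the trend called none of them.

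Sets that lost signal under the trend and are named here were far dimmer. For 207545_s_at of LOC101928143/NUMB, an inhibitor of Notch signalling, the signal was 940, 364, 257 and 244 on A1 to A4 and 379, 219, 160 and 131 on B1 to B4, lower at every step on both arrays. The fitted change was −1.74 ± 0.31 with an adjusted p of 0.192 in limma and 0.00269 with the trend. The duplicated SRGAP2 genes (1568955_at), which act on cell shape, fell from 611 to 178 on A and from 329 to 143 on B under the trend (adjusted p of 0.012 in limma). One set of the small subunit protein RPS3A, 216823_at, went from 554 to 272 on A and from 396 to 166 on B (adjusted p of 0.0372 with limma's trend), while the RPS3A sets 200099_s_at and 212391_x_at had relative changes of 2.02 and 1.93 on A. Immunoglobulin and T cell receptor sets had median relative changes of −0.84 (A) and −0.25 (B), and under the trend 2 of 61 fell and none rose, against 1.21% and 3.57% of the table.

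Re-labelling was compared over 9 pairs of scans, the second series against the first at the same additional cycles. The second scan of each pair also had more total washing cycles, so re-labelling and the further washing cannot be told apart here. In the paper the second staining markedly raised the intensity level of the arrays. Scaling each scan to the same trimmed mean removes such a shared rise, so rises and falls here are relative to the other sets. Of the 1752 sets, 6 rose (0.342%, against 0.294% of the table) and 6 fell (0.342%, against 0.541%) at limma's adjusted p of 0.05. These shares were near those of the whole table. By ending 1 _x_at, 2 _s_at and 3 plain _at sets rose, and 4 _x_at and 2 plain _at sets fell. With the variance trend 30 rose (1.53% of the table) and 35 fell (1.83%), among them 14 of the 349 _x_at sets (4.01%, against 2.41% of the other _x_at sets). With scans scaled to the 100 brightest sets, 433 rose and 13 fell, against 10977 and 544 of the 54675 sets of the table. No set was called when the pairing was left out or when the array was the unit, and leaving out single pairs gave 0 to 6 rises and 0 to 14 falls. Without any 1 of the pairs A2 and A6, A3 and A7 or A4 and A8, or without array B, no set was called, without any 1 pair of array B at most 1 was, and without array A 1 rose. Without the pair C1 and C2, 6 rose and 14 fell.

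The 6 sets that rose were dim. The placental alkaline phosphatases ALPG/ALPP (211619_s_at) had signals of 23.1 to 253 in the first series (median 68.6) and 76.7 to 286 in the second (median 171), a rise of 1.04 ± 0.19 on the log2 scale in 9 of 9 pairs with an adjusted p of 0.0443 (limma). The ranges of both series overlapped in this and in all other 11 sets. TRIM74/TRIM73, whose promoters are printed above (1554183_s_at), went from a median of 32.2 to 80.5 and rose by 1.09 ± 0.18. TARP/TRGV9/TRGC2, T cell receptor gamma sequences (215806_x_at), went from 12.8 to 33.4. MIR6785/TMEM94 (222210_at) went from 29.9 to 113 and the long non-coding LINC01123/LINC01106 (235083_at) from 29.6 to 65.7. GIMAP1-GIMAP5/GIMAP5, a GTPase of lymphocytes (64064_at), went from 38.3 to 133.3 and was higher in 8 of 9 pairs.

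The 6 sets that fell included a pair of very bright ones. RPL23A (208825_x_at) had signals of 10716 to 43804 in the first series (median 25100) and 6905 to 18842 in the second (median 14675), a fall by 0.79 ± 0.14 in 9 of 9 pairs with an adjusted p of 0.0404 in limma. RPL7A, another large subunit protein (224930_x_at, with SNORD24, SNORD36A and SNORD36B), went from a median of 22626 to 11959 and fell by 0.77 ± 0.13. The dim ones were the zinc finger read-through ZNF816-ZNF321P/ZNF816 (217541_x_at, 87.0 to 43.6), the cytokine read-through TNFSF12-TNFSF13/TNFSF13 (209500_x_at, 103 to 54.8, lower in 8 of 9 pairs), MIR3185/PRAC2 (230845_at, 76.9 to 15.1) and CCDC30/PPCS, the second a coenzyme A synthesis enzyme (230897_at, 90.4 to 28.9). MIR3185/PRAC2 had the largest fall, by 2.02 ± 0.27.

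Some of the brightest _x_at sets were very low on the first scan after re-labelling and higher again on the next. For RPL23A, 208834_x_at gave 11039, 16462, 22533 and 27763 on A1 to A4, then 1423, 15177, 14532 and 19101 on A5 to A8. On array B it gave 17759, 27289, 35662 and 44207 on B1 to B4, then 138, 14415, 18879 and 28020 on B5 to B8. Its B5 signal was thus 129-fold below B1, while 213084_x_at with the same field gave 17472 on B1 and 18205 on B5.

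The heterogeneous nuclear ribonucleoprotein HNRNPA1, a splicing factor with many pseudogenes (213356_x_at), gave 8652 on A1 and 3742 on A5, 13740 on B1 and 2153 on B5, and 13365 again on B6. The PPIA set 211378_x_at, singled out here after its values were seen, gave 15622 on B1, 1382 on B5, 10818 on B6 and 27715 on B7. The 3 other _x_at sets of the same field stood between 17601 and 19665 on B5. In all, 5 of the 69 _x_at sets with several symbols in the brightest bin (C1 over 4479) had a B5 signal below 0.5 of B1 (7.25%), the other ones being 208738_x_at of SUMO2/SUMO3, named for the same reason, and 208825_x_at of RPL23A. Among the 216 other _x_at sets in that bin it was 8 (3.70%), and among the 46 sets there with several symbols and another ending none was this low. Over all endings it was 5 of 115 sets with several symbols (4.35%) and 17 of 979 others (1.74%). Sets with other endings were thus also this low. On array A it was 2 of the 69 (2.90%) and 5 of the 216 (2.31%). The median set of this bin with several symbols was higher on the first scan after re-labelling, by 0.64 on A and 0.29 on B on the log2 scale. Of the 5, re-labelling called 208825_x_at, and the trend also called 213356_x_at (adjusted p of 0.0154 in limma). Probe pairs behind the signals were not analysed here. In the second series the paper found the scanner saturated for a small part of the probes. Whether this touches these sets, or the falls of RPL23A and RPL7A, was not tested.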

How the data were processed

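The deposited values were microarray intensity values, 1 signal per probe set and scan, made by the authors with MAS5 (the version is not given in the sources used here) and scaled per scan by the authors. Gene fields came from the platform annotation, and RefSeq on GRCh38.p14 held 4513 of the 4552 gene identifiers. The fields were grouped by ending, kind and position. Signals were taken to log2 with no offset and fitted over all 54675 probe sets with limma 3.58.1 (R 4.3.3): 17 against 0 additional cycles with array as a block in each series (8 scans), the difference of both (16 scans), and second against first series over 9 pairs as a block, since the pairs are scans of the same array at the same additional cycles. P-values were Benjamini-Hochberg adjusted. Only 3 arrays of 1 RNA limit the precision. Scripts were tested on simulated data.

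Members, lists and tests were chosen with earlier results of these data known. The lists were the families and kinds described in the report together with zinc fingers, segmental duplications, chemokines and defensins, transferases, protocadherins, ubiquitin, proliferation and disease duplications. Named sets were those called, same in direction and above the median brightness, the brightest per ending, kind and family, the longest fields, the widest and narrowest fields and the extreme ratios to single-gene sets. Called sets outside this rule, 8 of 12 in re-labelling, are named because they are few. Alternatives were other scalings, an offset of 16, filters, moderation and left-out scans.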

Additional observations from a re-analysis of the deposited data

Results flagged for a closer look

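For 4 results the relative change on washing had opposite directions in the series on both arrays. The difference between the series was not tested for the medians of the first 2, and limma's fit did not call it for the single sets. The median of the 33 sets of the cancer-testis list was −0.24 (A) and −0.26 (B) in the first series and 0.22 and 0.03 in the second (mean 0.13). The 403 sets with a shared stem had −0.14 and −0.01 in the first series and 0.03 and 0.08 in the second (mean 0.055). The set 1565325_at of SNHG4/MATR3 had 0.49 and 2.82, then −0.23 and −0.76 (mean −0.50, adjusted p of 0.974 in limma for the difference between the series), and 205392_s_at of the chemokine read-through CCL15-CCL14/CCL14 had −0.90 and −1.59, then 0.24 and 2.07 (mean 1.15, adjusted p of 0.954 in limma).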

How the results depend on the processing

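Counts of called sets depended on the moderation and the scaling. In the first series limma's variance trend called 157 higher and 18 lower, brighter sets alone 84 and 4, and scaling anchored on the 100 brightest sets called 0 higher and 948 lower. In the second series the trend called 115 and 8 and the anchored scaling 2 and 736. For the difference between the series the trend called 45 lower, and leaving out single scans gave 0 to 1 higher. The anchored scaling moved the median of all sets to −1.80 (from −0.45) in the first series, −1.13 (from −0.24) in the second and 0.40 (from −0.02) on re-labelling.

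On re-labelling, 30 rose and 35 fell with the trend and 433 and 13 with the anchored scaling. An offset of 16 gave 19 falls and median centring 3. Without the replicate block of scan pairs 0 rose and 0 fell, as with the array as the unit. Leaving out single pairs or arrays gave 0 to 6 rises and 0 to 14 falls, with 0 of both without array B and 14 falls without array C.

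The level difference of 0.69 between sets with several symbols and others was 0.55 with the offset, 0.91 with 1 set per field and 0.094 without small RNA, read-through and LOC fields. Against plain _at sets, _x_at (1.03) gave 0.82 after quantile normalization, 0.86 with the offset, 1.41 with 1 set per field, 0.41 without those fields, 0.62 without ribosomal fields and 2.18 among brighter sets. In the same comparison _s_at (1.44) gave 1.10 after quantile normalization, 1.00 without those fields, 1.11 among brighter sets and 1.05 over the first series. For _a_at (−0.47) the values were −0.17 without those fields, −0.87 among brighter sets and −0.79 over the first series, and the sign turned to 0.22 with 1 set per field.

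For the washing change of the first series, _x_at minus _at (0.47) was 0.083 after quantile normalization, 0.37 with the offset, 0.12 without those fields, 0.27 without ribosomal fields and 0.74 among brighter sets. The _s_at difference was 0.027 after quantile normalization, and that of _a_at turned to 0.34 among brighter sets. In the second series the difference from other sets was 0.016 after quantile normalization and 0.041 without those fields. For _x_at the values were 0.060 after quantile normalization, 0.18 with 1 set per field, 0.12 without those fields, 0.21 without ribosomal fields and 0.38 among brighter sets. For _s_at they were 0.023 after it, 0.091 with the offset, 0.095 with 1 set per field, 0.084 without those fields, 0.12 without ribosomal fields and 0.10 among brighter sets. The ribosomal family was 0.0055 in the first series and 0.051 in the second after quantile normalization. The log2 ratio of shared to single-gene sets (−0.46 on C1) was −0.25 on A1 and −0.14 on A4. The ribosomal filter, the family scaling and the other scans for the ratio were chosen after seeing the data. The causes of these shifts were not tested. Dim sets, near background, limit the comparison of most _a_at and many plain _at sets. Of these endings 34.9% and 53.2% lay above the C1 median of the table.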

Other observations

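The 62 zinc finger sets (C1 median 66.2) had median relative changes of 0.21 on array A and −0.14 on array B in the first series, with 1 higher and 2 lower under the variance trend (3.57% and 1.21% of the table), and PTGR2/ZNF410 (209944_at) was the brightest at 3434. The 36 sets of segmental duplications, mostly recently copied genes, had 157 on C1 and relative changes of 0.31 and 0.14, with 4 higher under the trend (3.57% of the table), and the neuroblastoma breakpoint family (226740_x_at of NBPF26/NBPF10/NBPF14) gave 4099. The 12 proliferation sets had a C1 median of 259, led by the centromere histone variant field SLC35F6/CENPA (204962_s_at) at 1212, with relative changes of −0.03 and 0.11 and none called under the trend.

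The spinal muscular atrophy genes SMN2/SMN1 and the neighbouring SERF1B/SERF1A made up 4 sets with a C1 median of 794, and their median relative changes were 0.84 (A) and 0.0047 (B). The ubiquitin-conjugating UBE2V1 fields (4 sets) had a median of 1697 with changes of 0.68 and 0.40. Chemokine and defensin sets (11, median 15.8), transferases (12, median 74.9) and protocadherins (16, median 45.1) had no set called in the first series, also with the trend. LINC02339/PCDH20 (232054_at) was the brightest protocadherin set at 2472, while 1560566_at with the same field gave 1.38.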
